A study of Mus musculus with 10 samples.

Results

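The D-type cyclins and the proteins that act on them were followed in embryonic mouse brain as messenger RNA of 8 genes out of 28059 listed in the count tables. The genes were chosen by name: the 3 D-type cyclins (Ccnd1, Ccnd2, Ccnd3), their kinases (Cdk4, Cdk6) and the 3 Cip/Kip inhibitors (Cdkn1a, Cdkn1b, Cdkn1c). All 8 were found by Entrez identifier and all 8 passed the filter on low counts, with between 215 counts (Cdk6 in DKO 2) and 15702 counts (Ccnd2 in KO 1) in a library.

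RNA was sequenced from whole brains at E18.5, shortly before birth, without the olfactory bulbs, in 10 libraries with 2 for each of 5 genotypes. The quadruple knockout (QKO) lacked COP1, cJun, ETV1 and ETV5, the triple knockout (TKO) lacked COP1, cJun and ETV1, the double knockout (DKO) lacked COP1 and cJun, and the single knockout (KO) lacked COP1 alone. The control was heterozygous for COP1, so none of the 5 groups was wild type and every knockout group lacked COP1. The driver of the deletions, the strain, and the embryos' sex and litter were not in the labels.

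A D-type cyclin binds CDK4 or CDK6, and the pair phosphorylates the retinoblastoma protein RB, which releases E2F transcription factors and lets a cell pass from G1 into S phase. The Cip/Kip proteins p21 (Cdkn1a), p27 (Cdkn1b) and p57 (Cdkn1c) inhibit cyclin and CDK complexes and are used by neural progenitors as they leave the cell cycle. COP1 is the substrate receptor of a ubiquitin ligase whose known targets include the transcription factors c-Jun, ETV1 and ETV5. c-Jun binds AP-1 elements, and ETV1 and ETV5 belong to the ETS family.

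The libraries held between 31996944 and 54594523 counts. As a check of the labels, Jun averaged 1.75 ± 0.43 nRPKM in QKO, 1.54 ± 0.08 in TKO, 2.27 ± 0.94 in DKO, 15.7 ± 0.56 in KO and 15.0 ± 0.01 in control (SD, n = 2 each), where nRPKM is the deposited RPKM adjusted by a size factor per library. The other 3 deleted genes showed no such loss at the step labelled as their deletion. Etv1 averaged 3.74 ± 0.09 nRPKM in TKO and 2.04 ± 0.09 in DKO (SD, n = 2 each), and so was higher at the step labelled as its deletion (log2 fold change 0.88 ± 0.12, adjusted p = 0.0159 in edgeR's quasi-likelihood test). Etv5 averaged 4.04 ± 0.09 nRPKM in QKO and 3.84 ± 0.13 in TKO, a log2 fold change of 0.07 ± 0.08. Both genes were already lower in KO, which is not labelled as lacking either, than in control. Etv1 averaged 2.03 ± 0.37 nRPKM in KO and 4.88 ± 0.09 in control (log2 fold change -1.27 ± 0.11, adjusted p = 0.000455 by edgeR). Etv5 averaged 2.66 ± 0.03 nRPKM in KO and 6.98 ± 0.37 in control (-1.38 ± 0.08, adjusted p = 9.35e-06 by edgeR). Cop1 averaged 3.998 ± 0.23 nRPKM in KO and 4.87 ± 0.18 in control, a log2 fold change of -0.28 ± 0.09 (adjusted p = 0.27 by edgeR). The counts cover whole genes and the labels do not say which part of a gene was deleted, so the labels for Cop1, Etv1 and Etv5 are unchecked and the genotypes are named as labelled. The genes Cop1, Jun, Etv1 and Etv5 lie on chromosomes 1, 4, 12 and 16 and no member lies on any of them. DKO 1 and control 1 had the X-inactivation RNA Xist at 1464 and 1840 CPM (counts scaled to a common total) and the Y-linked Uty at 0 counts, whereas the other 8 libraries had Xist at or below 1.94 CPM and Uty at or above 22.95 CPM. KO, TKO and QKO therefore held the male pattern only, while DKO and control held 1 library of each pattern.

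Promoter sequence was read for the members because the deleted proteins include AP-1 and ETS factors. RefSeq windows of 300 bases (250 before and 50 after a transcription start, GRCm38.p6) were held for 5 members in 7 windows: Ccnd3, Cdk4, Cdk6, Cdkn1a and Cdkn1b. No window was held for Ccnd1, Ccnd2 or Cdkn1c, so their promoters were not searched. Both strands were searched for the AP-1 element (TGACTCA or TGAGTCA), the CRE (TGACGTCA), ETS elements (CCGGAAGT or CAGGAAGT) and E2F elements (TTTCGCGC or TTTGGCGC), and no motif contains another. The AP-1, CRE and E2F letters were in 0 of the 7 windows, against 5.2%, 1.79% and 0.813% of all 32851 windows. ETS letters were in 1 of the 7 windows, the upstream one of Ccnd3 (chr17:47504801-47505100, plus strand), and in 7.07% of all windows. This window is shown because it holds 2 ETS matches, in capitals and both on the minus strand.
Ccnd3: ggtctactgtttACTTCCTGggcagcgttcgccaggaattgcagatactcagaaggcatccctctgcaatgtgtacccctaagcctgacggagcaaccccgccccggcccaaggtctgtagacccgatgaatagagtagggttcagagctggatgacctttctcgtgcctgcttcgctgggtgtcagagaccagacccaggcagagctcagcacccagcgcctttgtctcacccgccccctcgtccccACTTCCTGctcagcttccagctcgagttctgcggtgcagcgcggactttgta
A p53 response element was searched for as well, because Cdkn1a is the best known p53 target. It was taken as a pair of abutting sites spanning 20 bases with at most 1 mismatch, and it was found in 1 of the 7 windows and in 0.0548% of all windows. Because the element was chosen for Cdkn1a, after values were seen, these counts do not measure the members as a set. The match is in capitals in the upstream window of Cdkn1a (chr17:29090729-29091028, plus strand), at bases 200 to 219 of the window.
Cdkn1a: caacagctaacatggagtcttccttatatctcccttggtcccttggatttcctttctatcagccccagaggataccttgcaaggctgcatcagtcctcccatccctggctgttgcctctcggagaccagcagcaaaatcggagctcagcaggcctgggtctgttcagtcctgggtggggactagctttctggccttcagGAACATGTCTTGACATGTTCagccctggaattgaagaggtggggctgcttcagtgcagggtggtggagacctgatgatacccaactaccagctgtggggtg

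The levels set the 8 genes far apart. Averaged over the 10 libraries, Cdk4 was the most abundant at 110.9 nRPKM, followed by Ccnd2 at 49.2, Cdkn1c at 48.1, Cdkn1b at 33.9, Cdkn1a at 19.7, Ccnd3 at 14.8, Ccnd1 at 14.3 and Cdk6 at 2.33. Ccnd2 and Cdkn1c overlapped in their ranges over the libraries (45.3 to 55.7 against 41.1 to 55.1 nRPKM), as did Ccnd3 and Ccnd1 (13.1 to 15.8 against 11.7 to 18.4 nRPKM), and the other neighbours in the order did not overlap. The coefficient of variation over the 10 libraries was 13.9% for Ccnd1 and 11.9% for Cdk6, and between 5.22% (Cdk4) and 9.68% (Cdkn1c) for the other 6.

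**Figure D1:**
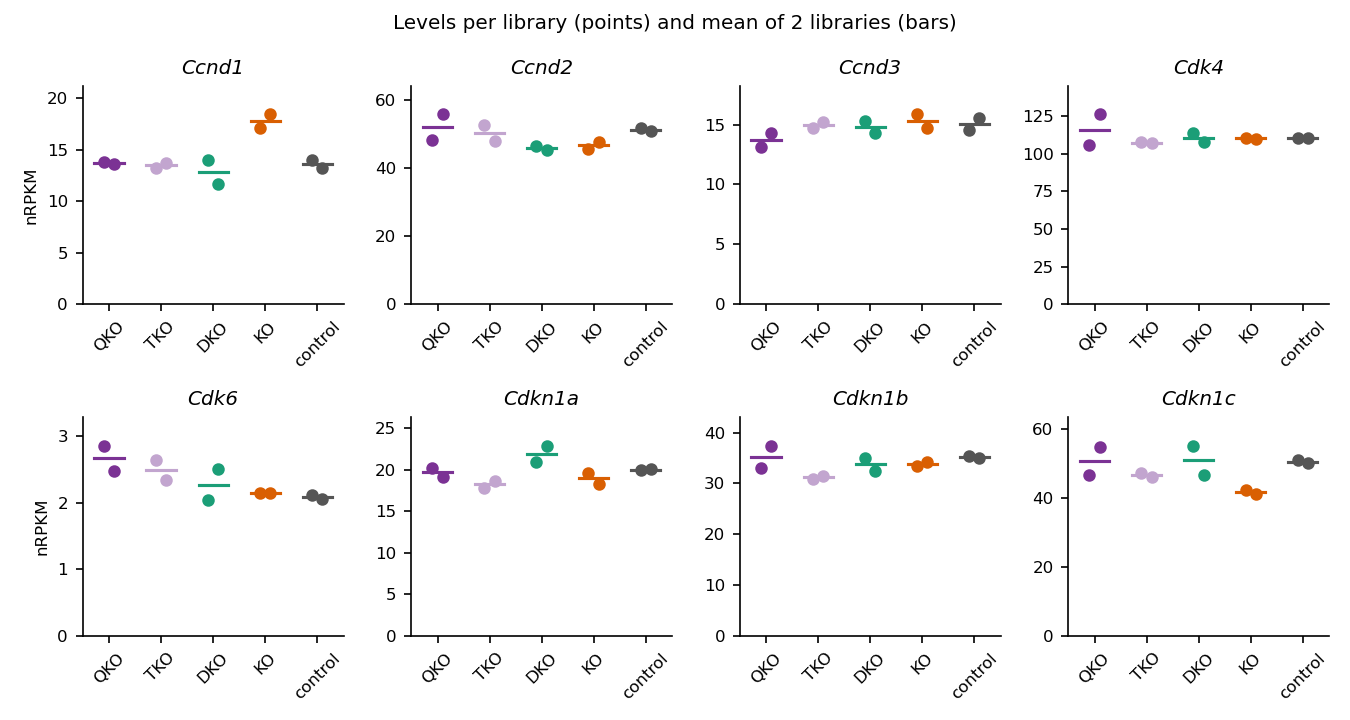
Deposited nRPKM of the 8 genes (y axis, from 0) by genotype (x axis), with a point per library and a bar at the mean of 2 libraries. In the Ccnd1 panel the KO libraries, at 17.1 and 18.4 nRPKM, stand above the other 8, which lie between 11.7 and 14.0.

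Ccnd1, which encodes cyclin D1, was the member with the largest differences between genotypes. It stood at 13.8 and 13.6 nRPKM in QKO, at 13.2 and 13.8 in TKO, at 14.0 and 11.7 in DKO, at 17.1 and 18.4 in KO, and at 14.0 and 13.2 in control. Both KO libraries were above the other 8, and the other 4 genotypes overlapped. Across all 18671 genes tested, 828 (4.43%) had both KO libraries above the other 8.

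Ccnd1 fell in DKO relative to KO, to 12.8 ± 1.67 nRPKM in DKO against 17.7 ± 0.95 in KO (SD, n = 2 each). On the log2 scale the difference was -0.47 ± 0.08 (SE), a ratio of 0.722, with a 95% interval of -0.65 to -0.29 and an adjusted p of 0.0325 in edgeR's quasi-likelihood test with Benjamini-Hochberg adjustment. It was the only member called in that comparison, 1 of 8, where 0.568% of all genes were called. The call was lost without KO 2 (adjusted p = 0.351), KO 1 (0.0925), DKO 2 (0.0929), TKO 1 (0.0703), TKO 2 (0.0648), control 1 (0.0633) or control 2 (0.0636), and in a fit of only the 4 libraries compared (0.132). Its size lay between -0.61 and -0.34 in all 17 alternative fits. In both DKO and control, the library with high Xist had the higher Ccnd1 level. Without those 2 libraries the log2 fold change was -0.61 with an adjusted p of 0.0163.

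The KO and control brains differed less clearly. Ccnd1 averaged 17.7 ± 0.95 nRPKM in KO and 13.6 ± 0.57 in control, a log2 fold change of 0.40 ± 0.08 with an adjusted p of 0.0654, so it did not pass the threshold of 0.05 in edgeR's test. None of the 8 members was called in this comparison, where 0.734% of all genes were. Unadjusted, 2 of the 8 had p under 0.05, beside 10.4% of all genes. DESeq2's test called Ccnd1 here (adjusted p = 0.00789), as did edgeR without a filter on low counts, with the 4 libraries alone (0.00631), without DKO 1 (0.0177), without DKO 2 (0.0159) or with Xist as a covariate (0.0353). The remaining 11 alternatives did not call it, and the log2 fold change was between 0.29 and 0.48 over all 17.

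The genotypes that lacked cJun in addition to COP1 had Ccnd1 close to the control. The log2 fold change against control was 0.01 in QKO (95% interval -0.17 to 0.20), -0.00 in TKO (-0.19 to 0.18) and -0.07 in DKO (-0.26 to 0.11), and none of the 8 members was called in these comparisons, where 0.236%, 0.15% and 0.423% of all genes were. QKO against KO gave a log2 fold change of -0.38 ± 0.08 with an adjusted p of 0.0558 in edgeR, which did not pass, in a comparison where 0 of the 8 members and 1.29% of all genes were called. DESeq2 called Ccnd1 there (adjusted p = 0.00972). DKO and QKO were compared with the same KO libraries, and KO, DKO, TKO and QKO with the same control libraries, so these values are not independent. Between successive knockouts Ccnd1 gave 0.07 (TKO against DKO) and 0.02 (QKO against TKO), with 0 of 8 members called in either comparison and 0.0911% and 0.289% of all genes called. A test by edgeR for any difference among the 5 genotypes gave Ccnd1 an adjusted p of 0.0611 and called 0 of 8 members, against 1.25% of all genes, while DESeq2 called 1 member, Ccnd1.

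**Figure D2:**
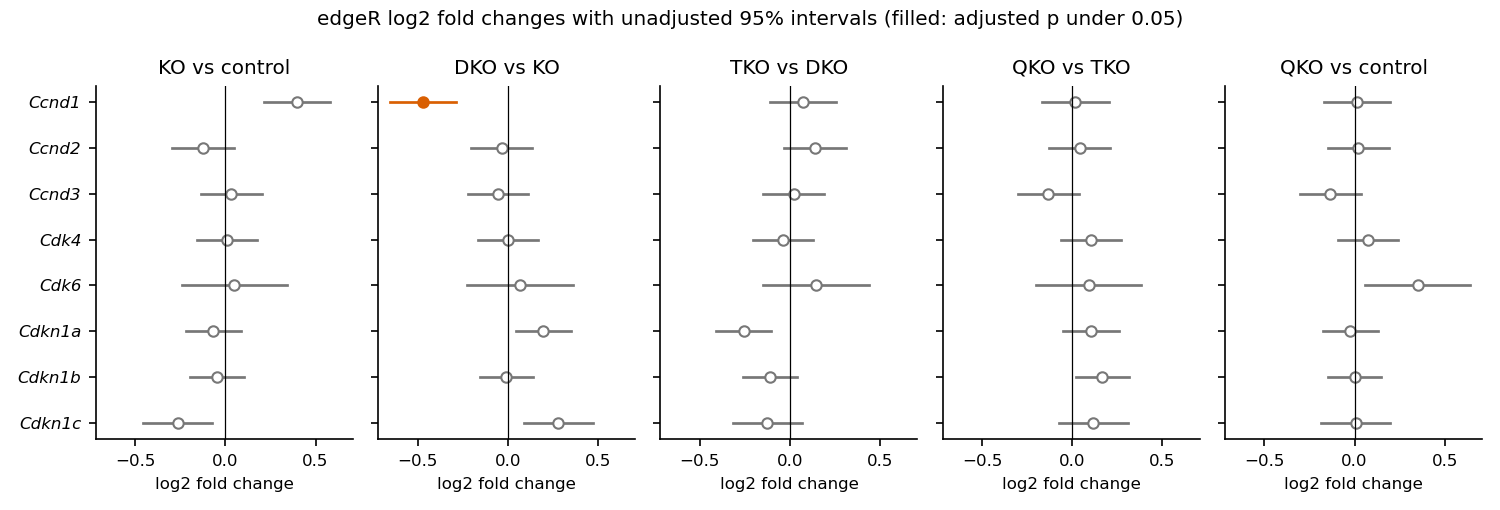
edgeR log2 fold changes (x axis) of the 8 genes (rows) in 5 comparisons, with unadjusted 95% intervals, filled where the adjusted p was under 0.05. The filled point is Ccnd1 in DKO against KO at -0.47, and Ccnd1 in KO against control at 0.40 is open.

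Ccnd2, which encodes cyclin D2, a D-type cyclin of cortical progenitors, was the most abundant of the 3 in every library. Its levels were 48.2 and 55.7 nRPKM in QKO, 52.5 and 48.0 in TKO, 46.3 and 45.3 in DKO, 45.6 and 47.7 in KO, and 51.7 and 50.8 in control. The DKO and KO libraries lay below the rest, overlapped each other, and were under the control libraries. The gap to the rest was small, from 47.7 nRPKM (KO 2) to 48.0 (TKO 2). How many of all genes had this placement was not counted. In none of the 8 comparisons did Ccnd2 have an unadjusted p under 0.05. Its log2 fold changes lay between -0.16 (DKO against control) and 0.15 (QKO against KO), with intervals between -0.33 and 0.32.

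Ccnd3, which encodes cyclin D3, was near the level of Ccnd1 and varied little. It stood at 13.1 and 14.3 nRPKM in QKO, 14.7 and 15.2 in TKO, 15.3 and 14.3 in DKO, 15.8 and 14.7 in KO, and 14.6 and 15.5 in control. The QKO libraries were among the lowest but overlapped DKO. It differed by a log2 fold change of -0.13 in QKO against TKO, the step labelled as the removal of ETV5, with a 95% interval of -0.30 to 0.04, and none of the 8 comparisons gave Ccnd3 an unadjusted p under 0.05.

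The mixture of D-type cyclins showed the Ccnd1 pattern on a scale that does not depend on library scaling. Ccnd1 made up 21.7% and 22.8% of the summed D-type cyclin nRPKM in the KO libraries and between 16.3% and 18.6% in the other 8. Ccnd2 made up 58.1% and 59.0% in KO and between 61.2% and 66.6% in the other 8. The sum itself was 78.5 and 80.8 nRPKM in KO, inside the range of 71.2 to 83.6 over all 10 libraries, so the KO libraries stood apart in the shares of Ccnd1 and Ccnd2 and not in their sum. The ratio of Ccnd1 to Ccnd3 was 1.08 and 1.25 in KO and between 0.817 and 1.05 in the rest. These shares use the same values as the levels above and are given without a test.

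**Figure D3:**
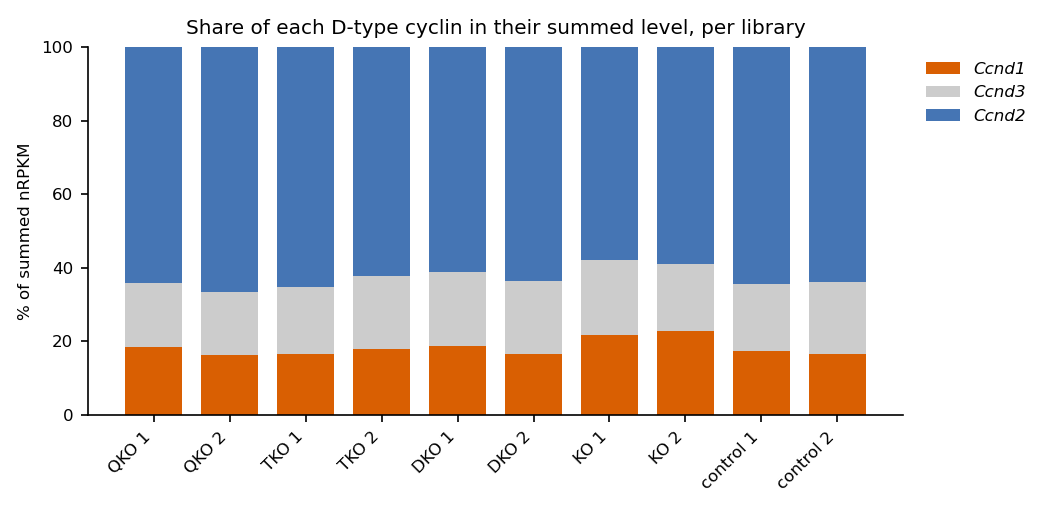
Share of each D-type cyclin (y axis, % of their summed nRPKM) in each of the 10 libraries (x axis), with Ccnd1 at the bottom, Ccnd3 in the middle and Ccnd2 on top. The Ccnd1 segment is 21.7% and 22.8% in the KO libraries and at most 18.6% elsewhere.

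The kinases did not pass the test in any comparison. Cdk4 stood at 106 and 126 nRPKM in QKO, 108 and 107 in TKO, 114 and 107 in DKO, 110.4 and 109.9 in KO, and 110.2 and 110.3 in control. QKO 2 was the highest library and QKO 1 the lowest, so the genotype with the widest spread covered all others. The log2 fold changes of Cdk4 lay between -0.04 and 0.10 and their intervals between -0.21 and 0.27, with no unadjusted p under 0.05.

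Cdk6, the less abundant kinase, was between 37.1 and 55.9 times below Cdk4 in nRPKM, depending on the library. It stood at 2.85 and 2.48 nRPKM in QKO, 2.63 and 2.35 in TKO, 2.04 and 2.51 in DKO, and 2.14 and 2.15 in KO, against 2.12 and 2.06 in control. All QKO and TKO libraries were above both KO and both control libraries, and the DKO libraries spanned that gap. Both QKO libraries lay above both controls for 16.8% of all genes tested. The share of genes with the fuller placement, with TKO and KO included, was not counted. In QKO against control the log2 fold change was 0.35 ± 0.13 (95% interval 0.06 to 0.64) and the adjusted p was 0.62, so it did not pass. Cdk6 was counted by 215 to 316 reads per library, the fewest of the members, and its intervals were the widest.

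Among the inhibitors, Cdkn1c, the imprinted gene of p57, had its lowest levels in KO. It stood at 46.6 and 54.7 nRPKM in QKO, 47.1 and 46.0 in TKO, 55.1 and 46.8 in DKO, 42.4 and 41.1 in KO, and 50.9 and 50.1 in control. Both KO libraries were below the other 8, a placement shared by 862 genes or 4.62% of those tested. The log2 fold change was 0.28 ± 0.09 in DKO against KO (adjusted p = 0.223), 0.27 ± 0.09 in QKO against KO (0.213) and -0.26 ± 0.09 in KO against control (0.286) by edgeR's test, none of which passed. Of 17 alternatives, 1 called each of 2 comparisons: the 4 libraries alone called KO against control (adjusted p = 0.0091), and the mean log2 CPM of hindbrain HOX genes as a covariate called DKO against KO (0.047). Over the 17 alternatives the log2 fold change of Cdkn1c was between 0.16 and 0.39 in DKO against KO, lowest without DKO 1 and without the libraries with high Xist. In KO against control it was between -0.53 (HOX covariate) and -0.20 (Xist covariate).

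Cdkn1a, the gene of p21, stood at 20.2 and 19.1 nRPKM in QKO, 17.8 and 18.7 in TKO, 20.9 and 22.8 in DKO, 19.6 and 18.3 in KO, and 19.98 and 20.03 in control. Both DKO libraries were above the other 8, as for 3.66% of all genes, and the TKO libraries overlapped KO. The log2 fold change was -0.26 ± 0.07 in TKO against DKO (adjusted p = 0.264) and 0.20 ± 0.07 in DKO against KO (0.27) by edgeR's test, and neither passed. Cdkn1b, the gene of p27, stood at 33.0 and 37.4 nRPKM in QKO, 31.0 and 31.5 in TKO, 35.1 and 32.5 in DKO, 33.4 and 34.3 in KO, and 35.4 and 35.01 in control. The TKO libraries were the lowest of the 10, as for 2.02% of all genes. Cdkn1b had a log2 fold change of 0.17 ± 0.07 in QKO against TKO (adjusted p = 0.757) and -0.17 ± 0.07 in TKO against control (0.447), neither of which passed.

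The inhibitors as a group were more abundant than the cyclins. Their summed level was between 1.16 and 1.47 times that of the D-type cyclins, with 1.21 and 1.16 in KO and between 1.19 and 1.47 in the other 8 libraries. The DKO libraries had the highest ratios, 1.47 and 1.43, and the next highest library had 1.33. Cdkn1c made up 44.5% and 43.8% of the inhibitor sum in KO and between 45.8% and 49.6% in the other 8.

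Over the 7 members other than Ccnd1 and all 8 comparisons, 0 of 56 values passed edgeR's test with Benjamini-Hochberg adjustment with a lowest adjusted p of 0.213. Unadjusted, 9 of the 56 had p under 0.05, beside 9.85% of all values of all genes in these comparisons. DESeq2's test also called none of these 7 in any comparison. Their log2 fold changes lay between -0.26 and 0.35. Without Cdk6, the 95% intervals of the remaining 48 values lay between -0.46 and 0.47, so a change larger than that was outside the interval of every one of them. A p above the threshold does not show equal levels.

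The wider cell-cycle machinery was read from 8 lists of 117 genes, 114 of which were tested. The lists held INK4 inhibitors, RB and E2F proteins, later cyclins and CDKs, S phase genes, turnover of D-type cyclins and CDK inhibitors, p53 targets, upstream regulators and imprinted genes. Apart from Jun, a deleted gene, 0 of them were called in KO against control, DKO against KO, TKO against DKO or QKO against control, and 2 were called in QKO against TKO. Unadjusted, 7, 26, 22, 10 and 9 of the 113 had p under 0.05 in these 5 comparisons, in that order, beside 10.4%, 13.8%, 11.9%, 6.89% and 5.78% of all genes. In each of the other 3 comparisons edgeR called 1 gene other than Jun. These were Hes1, a Notch target, in DKO against control (0.68 ± 0.11 on the log2 scale, adjusted p = 0.0209), Mcm6 in TKO against control (-0.47 ± 0.06, 0.0103) and Egr1 in QKO against KO (0.89 ± 0.12, 0.00408), with 19, 16 and 14 of the 113 at an unadjusted p under 0.05, beside 8.14%, 10.3% and 11.5% of all genes. Apart from Jun, DESeq2 called 1 in DKO against KO (Mki67) and 1 in TKO against DKO (Mcm6). It called 2 in QKO against TKO, 2 in DKO against control, 1 in TKO against control and 2 in QKO against KO. In KO against control and QKO against control it called 0. Among the unadjusted counts, 4 of 15 genes of S phase and 4 of 12 genes of the later cyclins and CDKs were lower in DKO than in KO at p under 0.05 and 0 of either list were higher, where 8.62% of all genes were lower and 5.21% higher. Of the turnover list, 4 of 14 genes were lower and 1 was higher, and of the upstream regulators 5 of 20, Jun among them, were lower and 0 higher. The median log2 fold changes in DKO against KO were -0.16 for the S phase list and -0.14 for the later cyclins and CDKs, beside -0.00 over all genes tested. In KO against control, 0 genes of the S phase list or the later cyclin and CDK list had an unadjusted p under 0.05. Their medians were 0.06 and 0.07, beside 0.01 over all genes.

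Downstream of the cyclins, Rb1, the gene of RB, stood at 21.6 and 22.0 nRPKM in DKO against 19.1 and 19.6 in KO. The difference of 0.17 ± 0.07 on the log2 scale did not pass (adjusted p = 0.321 by edgeR). E2f1, which encodes an RB-bound activator, was at 3.87 and 3.63 nRPKM in DKO and 3.86 and 3.91 in KO. Cdk2, the kinase that acts with cyclin E after the D-type cyclins, was at 4.50 and 4.19 nRPKM in DKO and 4.85 and 5.15 in KO. Its log2 fold change was -0.21 ± 0.09 (adjusted p = 0.337 by edgeR). Ccne1, which encodes cyclin E1, had a log2 fold change of 0.01 ± 0.12 in the same comparison. Mki67, whose protein marks cycling cells, was at 7.46 and 7.81 nRPKM in DKO, 9.92 and 11.1 in KO, and 10.4 and 9.30 in control. Both DKO libraries were below the other 8 for Mki67, as for 3.64% of all genes. Its log2 fold change in DKO against KO was -0.47 ± 0.10, the same size as that of Ccnd1, and did not pass in edgeR (adjusted p = 0.0821), while DESeq2 called it.

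The INK4 inhibitors, which bind CDK4 and CDK6 directly, were scarce apart from Cdkn2c. Cdkn2a was at or below 0.10 nRPKM in every library and was not tested, Cdkn2b was between 0.19 and 0.77, Cdkn2d between 0.09 and 0.23, and Cdkn2c between 2.83 and 4.15. The 3 tested INK4 genes had 0 calls by edgeR or DESeq2 in each of the 8 comparisons. Of 23 p53 targets and regulators, 22 were tested and 0 were called by edgeR in any comparison, with 2 to 4 at an unadjusted p under 0.05 per comparison, beside 5.78% to 13.8% of all genes. DESeq2 called 1, Zmat3, in QKO against KO. Trp53, the gene of p53, was between 18.97 and 24.1 nRPKM over the libraries, and Mdm2, which encodes its ubiquitin ligase, was between 12.2 and 16.7. The log2 fold changes in DKO against KO were -0.07 ± 0.11 for Trp53 and -0.21 ± 0.10 for Mdm2, beside 0.20 for Cdkn1a.

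The 2 list genes called in QKO against TKO were Mcm6, a subunit of the replicative helicase, and Egr1, an immediate early gene. Mcm6 was at 18.2 and 17.9 nRPKM in QKO and 13.1 and 13.1 in TKO, a log2 fold change of 0.45 ± 0.06 with an adjusted p of 0.00884 by edgeR. The TKO libraries were the lowest of the 10 for Mcm6 and those of the other 4 genotypes lay between 16.3 and 18.6 nRPKM. Egr1 was at 3.05 and 2.91 nRPKM in QKO and 1.66 and 1.57 in TKO, a log2 fold change of 0.88 ± 0.12 with an adjusted p of 0.0123 by edgeR. Neither Ccnd1, at 0.02, nor any other member was called in that comparison.

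**Figure D4:**
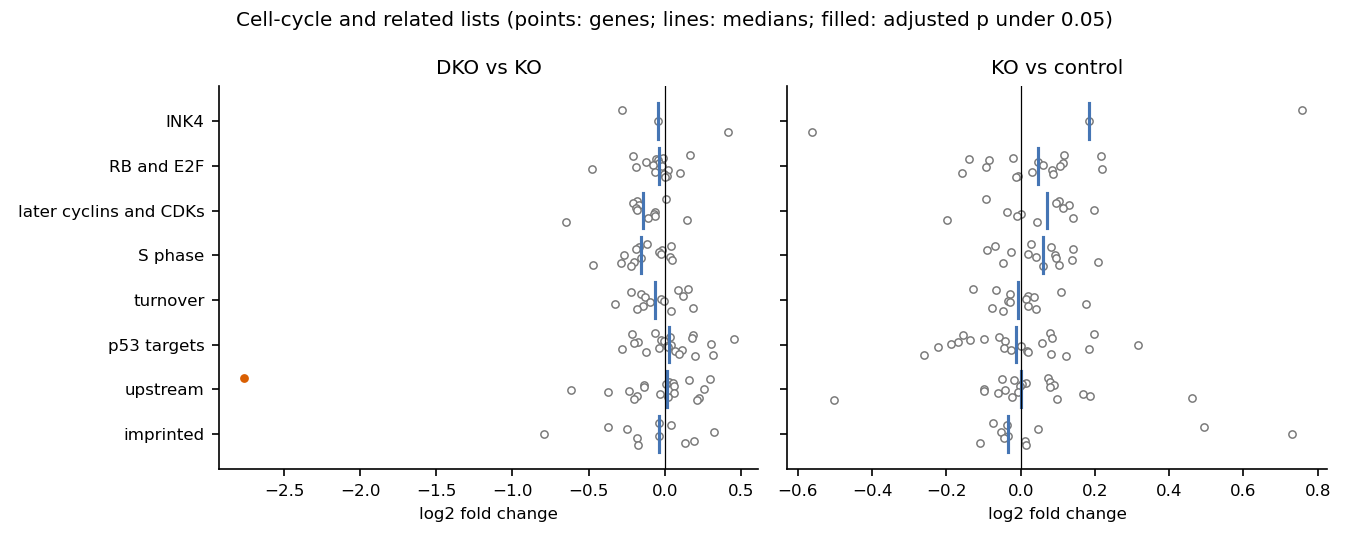
edgeR log2 fold changes (x axis) of the tested genes of 8 cell-cycle and related lists (rows) in DKO against KO (left) and KO against control (right), with a point per gene, a line at each list's median and filled points where the adjusted p was under 0.05. The filled point is Jun, a deleted gene, at -2.77 in DKO against KO. The S phase and later cyclin and CDK medians lie at -0.16 and -0.14 in DKO against KO.

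Markers of several cell types differed between the groups compared for Ccnd1. In KO against control, where 0.734% of all genes were called, 3 of 10 radial glia markers rose (Nes, Slc1a3 and Vim), as did 5 of 6 markers of oligodendrocyte precursors and 3 of 5 of astrocytes, and 0 fell in any of these lists. Radial glia markers were not of one direction there, with 6 higher and 2 lower at an unadjusted p under 0.05, beside 6.22% and 4.21% of all genes. Fabp7, a radial glia marker, averaged 510 ± 18.3 nRPKM in KO and 634 ± 29.9 in control (adjusted p = 0.128 by edgeR). Of the intermediate progenitor markers 2 of 5 fell (Eomes and Neurod1), as did 1 of 5 of cerebellar granule progenitors (Atoh1). Olig2, a marker of oligodendrocyte precursors, also rose in TKO against control (0.61 ± 0.09 on the log2 scale, adjusted p = 0.0208 by edgeR) and in DKO against control (0.78 ± 0.09, 0.00249), where Ccnd1 differed by -0.00 and -0.07. It was the only precursor marker called in either comparison. In each of them 4 of the 6 precursor markers were higher and 1 was lower at an unadjusted p under 0.05. Of all genes, 5.98% and 4.28% were higher and 4.27% and 3.86% lower. In DKO against KO, where 0.568% of all genes were called, 3 of 10 radial glia markers (Nes, Tnc and Vim) and 2 of 5 astrocyte markers fell. There 0 of 6 oligodendrocyte precursor markers passed edgeR's test. Unadjusted, 6 of 6 were lower at p under 0.05, beside 8.62% of all genes. In QKO against KO, where 1.29% of all genes were called, 6 of 10 radial glia, 5 of 6 precursor and 3 of 5 astrocyte markers fell. In these lists 0 rose, while 1 of 5 intermediate progenitor markers, Eomes, rose. Unadjusted, 8 radial glia markers were lower and 2 higher at p under 0.05, beside 6.75% and 4.75% of all genes. The summed level of the 6 precursor markers was 70.3 to 79.8 nRPKM in QKO, 106 to 117 in TKO, 112 to 126 in DKO, 153 to 180.4 in KO, and 77.4 to 89.8 in control. For radial glia the sums were 945 to 978 nRPKM in QKO, 984 to 1029 in TKO, 945 to 974 in DKO, 1079 to 1085 in KO, and 1025 to 1075 in control. For astrocytes they were 108 to 120 nRPKM in QKO, 135 to 142 in TKO, 139 to 152 in DKO, 151 to 179 in KO, and 129 to 134 in control. The largest part of the radial glia sum was Fabp7, at 497 to 655 nRPKM over the libraries. That of the astrocyte sum was Aldoc, at 66.8 to 93.6 nRPKM. Such sums follow the most abundant genes and can hide changes of the others. Intermediate progenitor sums were 50.3 to 56.8 nRPKM in QKO, 43.7 to 47.4 in TKO, 44.7 to 48.1 in DKO, 43.6 to 44.4 in KO, and 53.4 to 53.9 in control. No marker of these 4 lists was at 0 in any library.

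Brain region content also differed between libraries. The summed level of 11 HOX genes, which mark hindbrain and are low in forebrain, was 13.7 and 2.20 nRPKM in QKO, 8.13 and 6.11 in TKO, 1.87 and 3.69 in DKO, 1.76 and 0.737 in KO, and 13.4 and 18.3 in control. In KO against control 6 of the 11 fell and 0 rose, and Hoxa5 was the only one at 0 in any library. With their mean log2 CPM as a covariate the log2 fold change of Ccnd1 was -0.44 in DKO against KO (adjusted p = 0.0318 by edgeR) and 0.29 in KO against control (0.365). Red cell genes summed to 761 and 977 nRPKM in DKO and 266 and 324 in KO, and neuronal markers to between 2064 and 2315 nRPKM over all 10 libraries. The part of these cell types and regions in the Ccnd1 result was not tested. In bulk tissue, fewer cells of a type and less RNA per cell cannot be told apart.

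**Figure D5:**
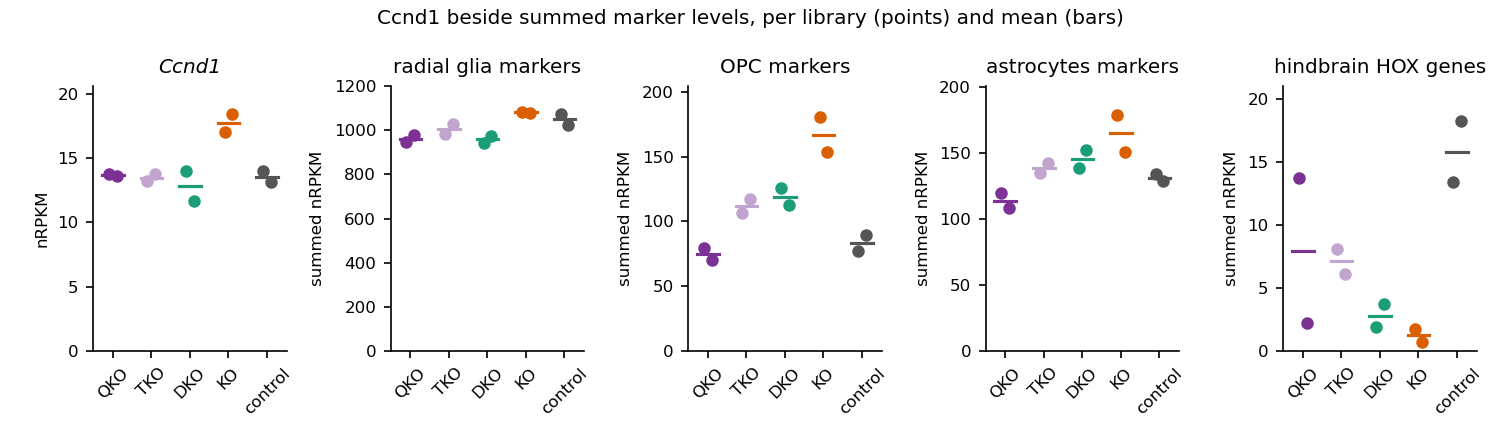
Ccnd1 (left panel, nRPKM) beside the summed nRPKM of radial glia, oligodendrocyte precursor (OPC), astrocyte and hindbrain HOX genes (y axes, from 0) by genotype (x axis), with a point per library and a bar at the mean. The KO libraries, highest for Ccnd1, are also highest for the OPC sum (153 and 180.4 nRPKM) and lowest for the HOX sum (0.737 and 1.76).

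Several members share sequence with a gene on the opposite strand, and no source used here states how strand was handled in the counts. Reads from the shared bases therefore cannot be told apart. In the GENCODE M21 annotation Ccnd1 shares 1100 exon bases with LTO1, Ccnd3 shares 361 with Bysl and Cdk4 shares 641 with Tspan31. Genes not annotated as protein-coding share 368 and 372 exon bases with Ccnd2, 368 with Cdk6, 273 with Cdkn1a and 625 with Cdkn1c. The log2 fold changes in DKO against KO were -0.11 ± 0.09 for LTO1, 0.00 ± 0.10 for Bysl and 0.09 ± 0.06 for Tspan31, and LTO1 was between 6.48 and 7.48 nRPKM over the 10 libraries.

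The genes whose profile over the 10 libraries was most like that of a member are given as a description, from 15994 genes with a mean of at least 1 CPM. For Ccnd1 they were the unnamed identifier ID100042558 (Pearson r = 0.95), Mfsd1 (0.93) and the pseudogene Tdg-ps2 (0.92). For Cdk4 the closest was the unnamed ID640611 (0.99), listed at 146 to 174 nRPKM. For Cdkn1c they were St13 (0.97), Fdft1 (0.95) and Hsdl1 (0.95), for Cdkn1b Surf6 (0.99), Sertad4 (0.95) and Rtf2 (0.93), and for Ccnd2 Flrt3 (0.95), Ebf1 (0.95) and Cyp39a1 (0.94). The highest for the other 3 were Kctd17 with Ccnd3 (0.92), Cep70 with Cdk6 (0.95) and Marveld2 with Cdkn1a (0.94). Among the members themselves, r over the 10 libraries ran from -0.77 (Ccnd3 and Cdk6) to 0.79 (Cdk4 and Cdkn1b). Ccnd1 and Cdkn1c had r = -0.57. The KO libraries were the highest of the 10 for Ccnd1 and the lowest for Cdkn1c, so this r partly restates those levels. Neither gene passed edgeR's test in KO against control. All of these profiles share the same libraries and genotypes, and the genes named as most alike were picked from 15994 by their r.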

How the data were processed

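The members and gene lists were chosen with earlier results of these data known. Per the submitters' processing notes, the aligner was GSNAP and the genome build NCBIM37. The deposited counts are reads aligned uniquely to a gene model, and the deposited RPKM values (nRPKM) are adjusted by a size factor per library, per the file headers. The annotation release and strand handling were not stated in the labels or headers. RefSeq (GRCm38.p6) named 24998 of 28059 identifiers and supplied promoter windows and chromosomes.

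The tests were edgeR's quasi-likelihood tests (edgeR 4.0.16, R 4.3.3) with TMM scaling and 5 group means over 10 libraries (5 residual degrees of freedom). filterByExpr kept 18671 genes and set aside 9388, and Benjamini-Hochberg adjustment ran over those kept. Calls are adjusted p-values under 0.05, and "rose" or "fell" is used of called genes. The fitting steps were tested on simulated data. Standard errors derive from the F statistic and 95% intervals are unadjusted.

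Named genes were all members, list genes called in a main comparison (KO against control, DKO against KO, TKO against DKO, QKO against TKO, QKO against control), and Rb1, E2f1, Cdk2, Ccne1, Mki67, Mdm2 and Trp53. The p53 element search was added, and Hes1, Fabp7, Olig2 and Aldoc were picked, after values were seen. Libraries of a group differed by more than counting noise (chi-square per degree of freedom 7.51 to 19.5). The labels give neither litter nor lane, so p-values measure the spread between these libraries only. In QKO, TKO and KO that may be technical spread, while the 2 libraries of DKO and of control had opposite Xist and Uty patterns. Library numbers follow accession order and pair nothing. Alternatives were DESeq2 1.42.0 size factors and test, no filter, the 4 libraries compared, each library left out, Xist or HOX as a covariate, and no libraries with high Xist. A floor of 3 counts is 0.055 to 0.0938 CPM in a library, and covers counting error only.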

Additional observations from a re-analysis of the deposited data

How the results depend on the processing

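In the order KO against control, DKO against KO, TKO against DKO, QKO against TKO, DKO against control, TKO against control, QKO against control, QKO against KO and any genotype, edgeR called 137, 106, 17, 54, 79, 28, 44, 240 and 234 genes. Without a filter the counts were 300, 336, 159, 160, 225, 145, 122, 487 and 862. DESeq2 called 241, 227, 83, 100, 141, 88 and 91 in the first 7 and 649 for any genotype. The 4 libraries compared gave 671, 63, 60, 521 (TKO against control) and 23 (QKO against control) where they moved the count by over 1.5 times, and no value for any genotype. The Xist covariate gave 63, 65 and 46 in the first 3. Leaving out the libraries with high Xist gave 36, 62, 60 and 34 (DKO against control). The HOX covariate gave 412 (DKO against KO), 32 (DKO against control) and 117 (TKO against control).

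Of the 8 members, 0 were called in the comparisons other than DKO against KO, where 1 was. In KO against control, QKO against KO and any genotype, 1 member was called without a filter, by DESeq2 and with the Xist covariate. In the last 2, 1 was called without the libraries with high Xist. The 4 libraries called 2 members in KO against control and 0 in DKO against KO, where the HOX covariate called 2. No member's call changed direction.

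Leaving out 1 library gave 23 to 215, 42 to 205, 2 to 43, 24 to 83, 27 to 121, 13 to 63, 17 to 68, 74 to 323 and 128 to 465 genes, and 0 to 1 members in KO against control, DKO against KO, QKO against KO and any genotype. Where a group keeps 1 library, that library is assumed to vary like the others. The causes were not tested. Cdk6 had the fewest counts of the members (215 to 316) and the widest intervals. No paired analysis was possible because the labels give no replicate numbers. TMM-scaled CPM and nRPKM gave 32 ratios of member levels to control that differed by at most 0.0091.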
